A study of Mus musculus with 55 samples.

Results

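Nascent transcription of the zinc finger protein (Zfp) genes was followed as mouse embryonic stem (ES) cells left mitosis. The members are all rows of the 2 pre-mRNA tables whose symbol starts with Zfp followed by a number, Zfp42 left out, so that they were chosen by name. There were 285 of them among 10574 listed genes. The table of the CCNA-GFP line held 270 of its 9911 genes and the table of the CTCF-AID line held 283 of its 10237, with 268 in both. The tables list only genes that passed the study's limit of 0.5 TPM (a transcript abundance corrected for length and set relative to the total of its library) in asynchronous cells or in at least 2 samples after release, and Zfp genes below it were not analysed here.

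All cells were E14Tg2a ES cells (129/Ola) grown in serum with LIF. CCNA-GFP cells carry a cyclin A-GFP fusion that reports the cell cycle, and were sampled asynchronous (3 libraries), arrested in mitosis (3), and after release at 20, 30, 40, 60, 90 and 120 min (2 each) and 50 min (1). Replicates 1 and 2 make up 20, 40, 60 and 120 min, replicates 1 and 3 make up 30 and 90 min, and 50 min is replicate 3. CTCF-AID cells, a single clone (#EN52.9.1), carry an auxin-inducible degron on the architectural protein CTCF; each of its arms, with auxin (+IAA) or without (-IAA), had 3 asynchronous and 3 mitotic libraries and 2 each at 20, 40, 50, 60, 90 and 120 min, with replicates 1 and 3 at 50 and 90 min and 1 and 2 at the other times. Mitotic cells of both lines were collected by shake-off after the CDK1 inhibitor RO-3306 and then nocodazole, so that the mitotic libraries and all released cells share both inhibitors. The +IAA cells received 0.5 mM auxin from the last 2 h of the nocodazole arrest onwards. Asynchronous +IAA cells were treated with auxin in parallel, for longer than the mitotic cells, and had no arrest. Time under auxin thus rose with time after release, and its part cannot be told apart from that of the stage. The questions were how fast Zfp transcription resumes and whether loss of CTCF alters it.

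The listed genes summed to between 13747 and 17245 TPM in mitotic, 30992 and 42576 TPM at 60 min and 20501 and 28934 TPM in asynchronous CCNA-GFP libraries. The listed values are the pre-mRNA part of each library's TPM total, which also covers spliced isoforms and genes not listed, so this sum can differ between libraries. Directions are therefore also given after scaling every library to the same total of the listed genes ("at equal totals"). A difference below 0 on that scale means that the gene held a smaller share of the listed total. It does not show that the gene's own pre-mRNA fell. Most of the rise seen on the deposited scale is the rise of the whole table. The ES cell markers had 8 of 9 genes listed in CCNA-GFP, at 2.14 to 33.1 TPM in asynchronous cells, while the list of markers of other cell types had 4 of 12 listed, at 0.280 to 1.5 TPM; their summed levels in single libraries ran from 68.8 to 123 TPM and from 1.04 to 7.72 TPM. In CTCF-AID 8 of 9 ES cell markers and 7 of 12 markers of other cell types were listed. Their summed asynchronous levels ran from 70.8 to 141 TPM and from 2.62 to 9.93 TPM in -IAA. In +IAA they ran from 71.2 to 124 TPM and from 2.48 to 10.8 TPM. The part of these markers in the results was not tested. Replicates are independent biological samples per the study's methods. Values are TPM of unspliced RNA from a whole population of cells, so less RNA per cell and fewer transcribing cells cannot be told apart.

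C2H2 zinc fingers are short modules folded around a zinc ion, and arrays of them read long DNA sequences. In mammals the largest family joins such an array to a KRAB domain, which recruits the corepressor TRIM28 (KAP1) and with it the histone methyltransferase SETDB1, placing repressive chromatin on retroelements and imprinted loci. These genes lie in tandem clusters, and many are active in ES cells. The Zfp prefix also covers proteins of other kinds, among them CCCH proteins that bind AU-rich mRNA and factors of the ribosome.

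Of the 285 members, 168 encoded a KRAB domain with C2H2 fingers (median 12 fingers, range 2 to 33), 105 encoded C2H2 fingers without KRAB (median 7, range 1 to 37), 10 had no C2H2 pattern in the translated coding sequence and 2 had no coding sequence in the annotation. KRAB was found in 170 members, with or without a C2H2 pattern, and later counts of KRAB genes use these. The 285 members lay on chromosome 7 (68 members), 17 (42), 13 (23) and others, and 126 of them, 103 with KRAB and C2H2 fingers, fell into 21 clusters of at least 3 members less than 250 kb apart. The largest were C1 at chr17:21423227-22456689 (14 members), C2 at chr17:32765496-33631779 (13) and C3 at chr7:29768552-30169750 (13), in mm10 coordinates. In transcripts of 12 members, over 50% of 50-base words were also found in other genes, among them Zfp600 (85.0%, most with Rex2), so that their levels are uncertain.

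The sequences shown for the auxin comparison are the 2 promoters below, those of Zfp341 and Zfp398, the only Zfp genes called for a loss of pre-mRNA with auxin by the main test. They run from 250 bases before to 50 bases after the RefSeq start (GRCm38.p6, the build also called mm10), both on the plus strand, Zfp341 at chr2:154613118-154613417 and Zfp398 at chr6:47835411-47835710. Capitals mark a match to CC, any base, C, any base, AG, any 2 bases and GGC, letters which resemble the core of the sequence CTCF binds and were searched on both strands after these 2 genes were known.
Zfp341: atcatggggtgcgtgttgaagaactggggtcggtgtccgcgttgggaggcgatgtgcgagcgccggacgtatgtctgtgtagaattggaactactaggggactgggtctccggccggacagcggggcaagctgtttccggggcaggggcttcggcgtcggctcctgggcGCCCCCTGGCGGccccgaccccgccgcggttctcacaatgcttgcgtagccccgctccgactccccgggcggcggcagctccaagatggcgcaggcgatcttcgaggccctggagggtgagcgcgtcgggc
Zfp398: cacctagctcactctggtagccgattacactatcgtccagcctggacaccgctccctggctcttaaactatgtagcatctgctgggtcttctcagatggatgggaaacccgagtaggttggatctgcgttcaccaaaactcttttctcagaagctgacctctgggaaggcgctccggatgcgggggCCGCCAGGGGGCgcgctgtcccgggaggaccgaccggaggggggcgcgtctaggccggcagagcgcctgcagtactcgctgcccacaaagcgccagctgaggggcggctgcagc
The same 12 letters, CCGCCAGGGGGC, matched in both windows, on the minus strand of Zfp341 at 81 bases before the start and on the plus strand of Zfp398 at 64 bases before the start. The search matched in 763 of 27025 promoters of the genome (2.82%) and in 7 of the 234 members with a promoter entry (2.99%), namely Zfp341, Zfp385a, Zfp398, Zfp513, Zfp558, Zfp777 and Zfp956. A match describes letters and not a bound site. In asynchronous cells the log2 difference with auxin was -0.34 for Zfp341 and -0.57 for Zfp398. For the other members with a match it was -0.01 (Zfp385a), -0.01 (Zfp513), 0.03 (Zfp558), -0.16 (Zfp777) and -0.07 (Zfp956), none called by the main test. Whether a match goes with a loss was not tested.

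On the deposited scale the first calls of Zfp genes above mitosis came at 40 min, and most members were called at 60 min. Since stage means of CCNA-GFP hold different replicates, the course is given within replicate 1, which lacks only 50 min. There the median level of the members was 0.819 TPM in mitosis, had reached 1.03 TPM by 30 min and 1.26 TPM by 40 min, and was highest at 60 min, with 2.55 TPM. It then went to 2.05 TPM by 90 min and 1.87 TPM by 120 min, and asynchronous cells had 1.36 TPM. The median log2 difference from mitosis was 0.88 at 60 min and 0.66 at 120 min in replicate 1, but 0.55 and 0.63 in replicate 2. Over all genes these were 0.92 and 0.63 in replicate 1, and 0.64 and 0.69 in replicate 2. The number of members with a mean over 1 TPM was 113 in mitosis, 210 at 60 min and 181 in asynchronous cells. Against mitosis (limma on log2(TPM + 1), replicate block, Benjamini-Hochberg adjusted p under 0.05), no member was called at 20 or 30 min, where 0.0% and 0.303% of all genes were called higher. An unadjusted p under 0.05 was reached by 4 and 16 of the 270 members and by 253 and 1135 of all 9911 genes. At 40 min 136 of 270 members (50.4%) were higher against 49.3% of all genes, and 1, Zfp653, was lower against 0.0404% (log2 difference -0.32, SE 0.10, adjusted p = 0.012; -0.64 at equal totals). The 40-min count of higher members fell to between 50 and 108 when 1 replicate was left out, the lowest without replicate 1, where 40 min is a single library, to 48 with no block and to 50 at equal totals. Over all genes the share called higher moved with it, to 26.4% without replicate 1, 23.8% with no block and 23.7% at equal totals, against 18.5%, 17.8% and 18.5% of the members. At 60 min 245 (90.7%) were higher against 88.3% of all genes and 0 were lower against 0.515%. At 90 min 253 were higher (all genes 89.1%) and at 120 min 257 (all genes 90.2%). These shares of members sat near the share of all genes at each of these times.

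The rise on this scale was that of the table as a whole. The median log2 difference from mitosis at 60 min was 0.73 over the members and 0.79 over all genes. At equal totals it was 0.01 over the members and 0.02 over all genes, with 84 members higher and 80 lower against 36.3% and 33.2% of all genes. A Zfp gene described below as higher than mitosis at 60 min is higher on the deposited scale. For genes described singly in CCNA-GFP the value at equal totals stands beside it. The -IAA values of Zfp367 and Zfp760 and those of single genes in the cluster paragraph are on the deposited scale only.

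A measure that does not depend on the scale is the share of the listed TPM held by the Zfp genes. In CCNA-GFP it was 2.26% to 2.42% in the 3 mitotic libraries, 2.13% to 2.24% at 40 min, 2.09% to 2.23% at 60 min, 2.29% to 2.38% at 90 min, 2.22% to 2.43% at 120 min and 2.43% to 2.79% in asynchronous cells. In CTCF-AID -IAA it was 2.183% to 2.28% in mitosis, 1.96% to 2.175% at 60 min and 2.41% to 2.57% in asynchronous cells. In +IAA it was 2.21% to 2.32%, 2.04% to 2.19% and 2.39% to 2.59%. In all 3 arms each 60-min library lay below each mitotic library and each asynchronous library lay above them. Without the 3 highest members (Zfp600, Zfp57 and Zfp809, an alternative chosen after seeing the data) the 60-min and mitotic libraries of -IAA overlapped, at 1.90% to 2.07% against 2.05% to 2.14%, while the other arms and the asynchronous libraries kept the separation. With 3 asynchronous and 3 mitotic libraries an exact test cannot go below p = 0.1, and none was run.

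**Figure D1:**
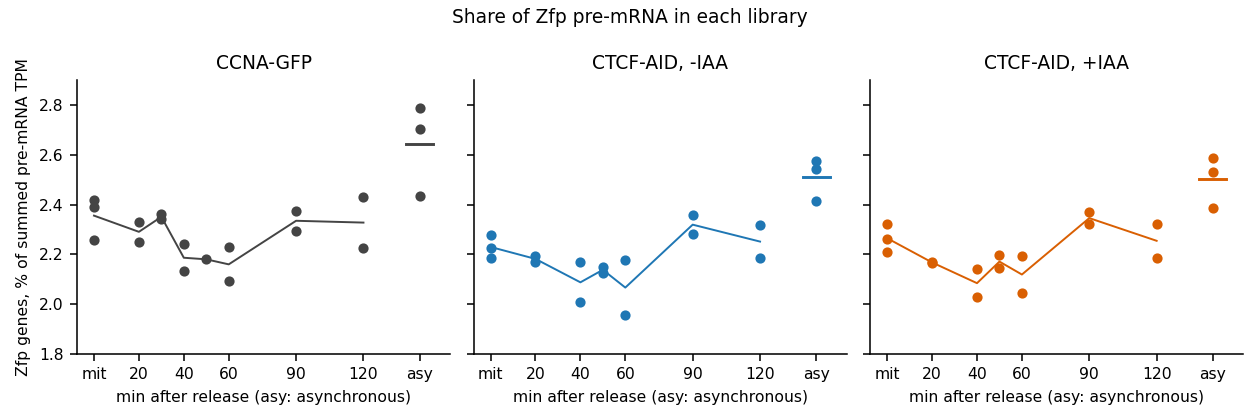
Each point is a library, with minutes after release on the x axis (mit for mitosis, asy for asynchronous) and the summed pre-mRNA TPM of the Zfp genes as a percentage of all listed TPM on the y axis, in 1 panel for each arm; lines join stage means. The share was lowest at 40 to 60 min, at 2.09% to 2.23% at 60 min in CCNA-GFP, and highest in asynchronous cells.

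In asynchronous cells more members stood above mitosis than genes at large. In CCNA-GFP 234 of 270 (86.7%) were higher against 70.4% of all genes, and 3 were lower (all genes 1.97%), Zfp365 at -0.50 (SE 0.12, adjusted p = 0.0015), Zfp646 at -0.33 and Zfp750 at -0.34, and at equal totals these 3 were lower too, at -0.87, -0.76 and -0.60. In CTCF-AID -IAA 162 of 283 (57.2%) were higher against 34.3% of all genes and 6 lower against 5.25%, and in +IAA 165 (58.3%) were higher against 40.9% and 7 lower against 5.89%. The -IAA count of higher members was 92 without replicate 3 and 62 with no block, and the +IAA count was 85 with no block. In the same fits the shares of members were 32.5%, 21.9% and 30.0%, against 17.3%, 11.6% and 17.3% of all genes. At equal totals the members still leaned upward in CCNA-GFP, with 116 higher and 23 lower against 24.7% and 20.2% of all genes, in -IAA, with 133 higher and 23 lower against 27.2% and 21.4%, and in +IAA, with 126 higher and 31 lower against 29.7% and 22.4%. The median difference at equal totals was 0.12 over the members and 0.02 over all genes in CCNA-GFP. Replicate pairs gave the same picture, since 246 members (91.1%) were higher in asynchronous than in mitotic cells in every pair of CCNA-GFP against 80.2% of all genes, and 204 (72.1%) in -IAA against 53.9%.

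Within replicate 1 of CCNA-GFP the highest stage was 60 min for 171 members (63.3%, against 66.5% of all genes), 120 min for 41 (15.2%, against 12.4%), 90 min for 36 (13.3%, against 11.8%) and asynchronous for 18 (6.67%, against 7.72%). By stage means, which mix replicates, it was 90 min for 116 members and 60 min for 53. Within replicate 1 of -IAA it was 50 min for 100 members (35.3%, against 36.7%) and 60 min for 94 (33.2%, against 34.5%). At equal totals asynchronous cells were the highest stage for 37.8% of members against 23.7% of all genes in CCNA-GFP, 37.1% against 20.6% in -IAA and 31.8% against 19.5% in +IAA. These are stage means, and within replicate 1 the shares were 40.0% against 23.6%, 39.6% against 22.8% and 33.2% against 21.5%.

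From 60 to 120 min the direction of the counts depended on the scale. On the deposited scale, in CCNA-GFP 63 fell and 32 rose, against 28.5% and 9.6% of all genes, in -IAA 130 fell and 25 rose, against 53.1% and 7.31%, and in +IAA 136 fell and 24 rose, against 50.8% and 7.61%. Both times hold replicates 1 and 2 only, so leaving out either of them sets 1 library against 1. Medians of single replicates on the deposited scale are given instead. In CCNA-GFP the members' median log2 difference from mitosis went from 0.88 at 60 min to 0.66 at 120 min in replicate 1 (all genes 0.92 to 0.63). In replicate 2 it went from 0.55 to 0.63 (all genes 0.64 to 0.69). In -IAA it went from 0.55 to 0.32 in replicate 1 (all genes 0.59 to 0.28) and from 0.49 to 0.36 in replicate 2 (0.64 to 0.39). In +IAA it went from 0.54 to 0.25 in replicate 1 (0.56 to 0.20) and from 0.57 to 0.43 in replicate 2 (0.67 to 0.47). At equal totals the direction turned in all 3 arms, with 41 falling and 71 rising in CCNA-GFP (21.7% and 24.2% of all genes), 45 and 77 in -IAA (26.5% and 25.6%) and 59 and 80 in +IAA (27.2% and 26.6%). From 60 min to asynchronous cells 160 members of CCNA-GFP were lower and 30 higher, against 67.0% and 8.6% of all genes, with 184 lower and 25 higher in -IAA (75.2% and 7.06%) and 183 lower and 26 higher in +IAA (72.2% and 8.24%). This direction turned as well at equal totals, with 58 members lower and 119 higher in CCNA-GFP (34.99% and 35.2% of all genes), 57 and 130 in -IAA (37.5% and 32.9%) and 66 and 119 in +IAA (36.9% and 33.9%).

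By the rule of the largest change at 60 min, the 5 named were Zfp367, Zfp622, Zfp593, Zfp280b and Zfp760, and of these only Zfp760 carries KRAB. All 5 stood above mitosis in both replicate pairs, and all 5 passed the test at equal totals as well.

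Zfp367 (chr13:64133018-64153202, minus strand) encodes a transcription factor with 2 C2H2 fingers. It had 2.68, 2.29 and 3.01 TPM in the mitotic libraries of CCNA-GFP, 14.8 and 10.8 TPM at 60 min and 4.09, 4.19 and 5.20 TPM in asynchronous cells. The 60-min libraries lay above all others of these 3 stages. The log2 difference from mitosis was 1.98 (SE 0.14, adjusted p = 2.1e-10) at 60 min and 0.82 at equal totals, and asynchronous cells were lower than 60 min by a log2 difference of -1.39 (adjusted p = 2.9e-08). In -IAA it had 4.33, 2.81 and 3.62 TPM in mitosis and 12.8 and 12.3 TPM at 60 min (log2 difference 1.59, adjusted p = 5.5e-09).

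Zfp622 (chr15:25984366-25998481), whose product helps assemble the large ribosomal subunit, had 1.92, 1.59 and 2.28 TPM in mitosis and 9.32 and 7.74 TPM at 60 min. The 2 groups did not overlap, and the log2 difference was 1.79 (SE 0.12, adjusted p = 1.8e-10), or 0.70 at equal totals. Zfp593 (chr4:134243289-134245592), a short gene whose product also takes part in ribosome assembly, had 0.383, 0.365 and 0.422 TPM in mitosis and 4.49 and 2.76 TPM at 60 min. Its log2 difference was 1.75 (SE 0.15, adjusted p = 2.0e-09), or 0.96 at equal totals.

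Zfp280b (chr10:76032650-76043234) had 1.92, 1.49 and 2.56 TPM in mitosis and 10.7 and 5.69 TPM at 60 min, with a log2 difference of 1.72 (SE 0.15, adjusted p = 2.0e-09), or 0.64 at equal totals. Zfp760 (chr17:21707741-21725636), a KRAB gene of cluster C1 with 17 fingers, had 0.976, 0.598 and 1.01 TPM in mitosis and 5.97 and 3.92 TPM at 60 min. It differed by 1.72 on the log2 scale (SE 0.12, adjusted p = 2.2e-10), or 0.80 at equal totals. In -IAA Zfp760 differed by 1.24 (SE 0.08, adjusted p = 5.3e-12). No Zfp gene of CCNA-GFP was called lower at 60 min, so none is named for a fall.

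**Figure D2:**
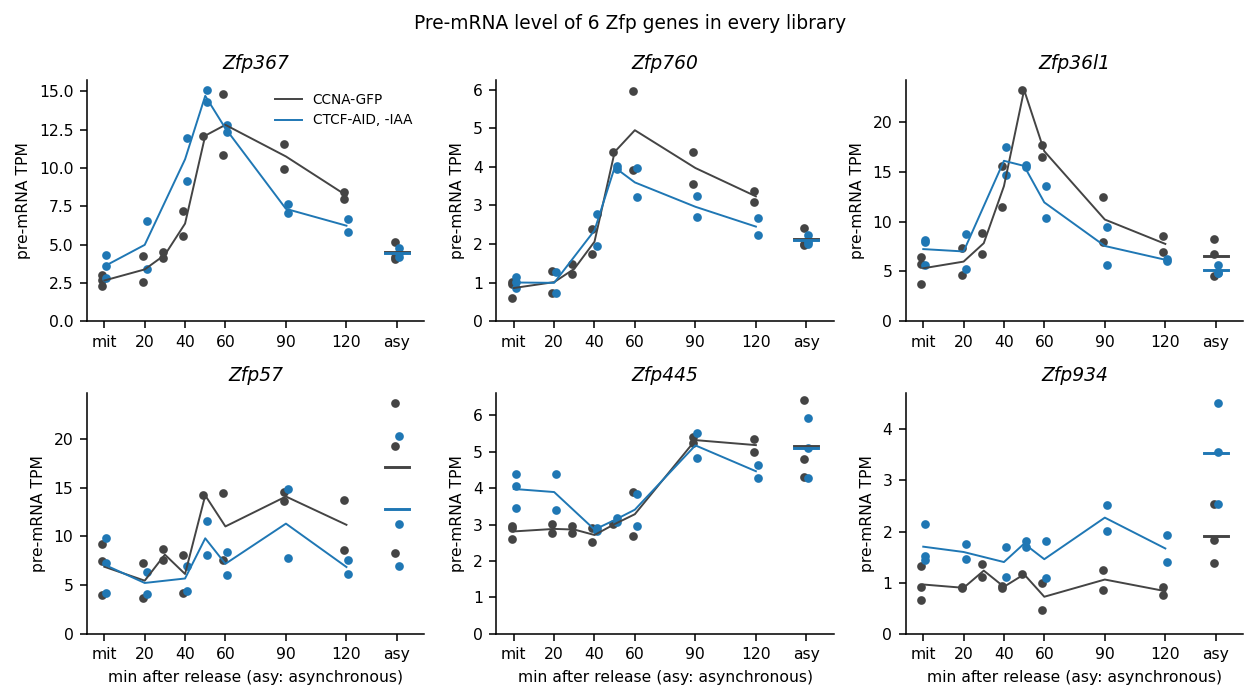
Pre-mRNA TPM (y axis, from 0) of 6 Zfp genes in every library, against minutes after release (x axis; mit for mitosis, asy for asynchronous), CCNA-GFP and CTCF-AID -IAA in separate colours and lines through stage means. Zfp367 rose to 14.8 and 10.8 TPM at 60 min in CCNA-GFP and was back to 4.09 to 5.20 TPM in asynchronous cells; Zfp57 had its highest CCNA-GFP mean in asynchronous cells, at 8.27 to 23.7 TPM. At equal totals the 60-min difference of Zfp57 turned to -0.37 and that of Zfp445 to -0.79.

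The next group holds repressors of imprints and retroelements. Zfp57 and Zfp445 protect imprinted methylation, Zfp568 represses an imprinted placental transcript and Zfp809 and Zfp932 silence retroelements. On the deposited scale 4 of the 5 listed were higher at 60 min in CCNA-GFP (80.0%, against 88.3% of all genes), with a median of 0.83 against 0.79 over all genes. The same number were higher in -IAA, where 84.8% of all genes were called, and in +IAA, where 82.2% were. In these 2 arms the median was below that of all genes, at 0.47 against 0.63 in -IAA and 0.43 against 0.63 in +IAA. Zfp57 (chr17:37001163-37010635) had 7.42, 3.99 and 9.22 TPM in mitosis, 14.5 and 7.57 TPM at 60 min and 19.3, 8.27 and 23.7 TPM in asynchronous cells. Its groups overlapped between replicates, replicate 2 being the lowest at each of these stages. The blocked difference was 0.83 (SE 0.13, adjusted p = 6.4e-06) at 60 min, turning to -0.37 at equal totals, and 1.15 (SE 0.12, adjusted p = 5.4e-07) in asynchronous cells, 0.61 at equal totals.

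Zfp445 (chr9:122844529-122866006, minus strand) was the repressor that did not pass the test at 60 min. It had 2.89, 2.59 and 2.95 TPM in mitosis, 3.88 and 2.69 TPM at 60 min, 5.36 and 5.0 TPM at 120 min and 4.29, 4.79 and 6.42 TPM in asynchronous cells. Mitotic and 60-min libraries overlapped, whereas those at 120 min and in asynchronous cells lay above both. The log2 difference from mitosis was 0.21 (SE 0.13, adjusted p = 0.13) at 60 min, -0.79 at equal totals (adjusted p = 1.1e-06), and it rose by 0.54 (SE 0.14, adjusted p = 0.0047) from 60 to 120 min. In -IAA the 60-min difference was -0.11 (adjusted p = 0.24), again -0.88 at equal totals.

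Zfp809 (chr9:22225714-22243354), which binds the primer binding site of murine leukaemia viruses, was among the 3 most abundant members. It had 12, 9.27 and 12.7 TPM in mitosis, 19.4 and 14.1 TPM at 60 min and 13.0, 9.10 and 16.0 TPM in asynchronous cells. Its 60-min difference was 0.63 (adjusted p = 8.7e-05), turning to -0.64 at equal totals, and asynchronous cells did not pass (0.13, adjusted p = 0.27). Zfp568 differed by 0.98 (adjusted p = 9.0e-07; -0.17 at equal totals) and Zfp932, with 45.2% of its 50-base words in other genes, by 1.11 (adjusted p = 1.2e-08; 0.18 at equal totals). Zfp600, the most abundant member by asynchronous mean, had 14.9, 10.7 and 18.4 TPM in mitosis, 33.4 and 17.1 TPM at 60 min and 30.3, 16.4 and 40.7 TPM in asynchronous cells, with the caveat on shared sequence above. Its 60-min difference was 0.88 (adjusted p = 7.3e-06), turning to -0.41 at equal totals.

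Of the pluripotency and transcription factors 11 of 11 were higher at 60 min in CCNA-GFP, against 88.3% of all genes (median log2 difference 1.03, against 0.79). In -IAA 9 of 11 were higher, against 84.8% (median 0.59, against 0.63), and in +IAA 7 of 11, against 82.2% (median 0.82, against 0.63). Zfp143, an activator of housekeeping promoters, differed by 1.27 (SE 0.12, adjusted p = 4.4e-09), 0.40 at equal totals. Zfp296, which interacts with the pluripotency factor KLF4, differed by 1.17 at 60 min (adjusted p = 1.4e-05; 0.09 at equal totals) and by -0.17 (adjusted p = 0.36) in asynchronous cells. In -IAA the latter was -0.89 (SE 0.22, adjusted p = 0.0026), from 5.15, 3.32 and 5.28 TPM in mitosis to 2.29, 1.22 and 2.62 TPM in asynchronous cells. Zfp281, a repressor of naive pluripotency, was noisy, at 0.592, 0.299 and 1.24 TPM in mitosis and 2.63 and 1.13 TPM at 60 min (0.77, SE 0.25, adjusted p = 0.0063; 0.08 at equal totals). Zfp462 differed by 0.60 (adjusted p = 0.00025) and Zfp384 by 0.80 (adjusted p = 4.5e-06), turning to -0.39 and -0.22 at equal totals.

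The 3 zinc finger partners of the chromatin reader ZMYND8 did not move alike. Zfp687 had 0.488, 0.664 and 0.619 TPM in mitosis and 3.01 and 2.62 TPM at 60 min (1.29, SE 0.12, adjusted p = 5.6e-09; 0.50 at equal totals). Zfp592 differed by 0.62 (adjusted p = 8.0e-06; -0.06 at equal totals). Zfp532 had 8.61, 4.35 and 9.22 TPM in mitosis and 9.70 and 4.14 TPM at 60 min, groups that overlap (0.11, adjusted p = 0.49; -1.05 at equal totals, adjusted p = 2.0e-06). Whether these 3 differ from each other was not tested.

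In both lines 2 of 2 members in AU-rich mRNA decay and 3 of 3 in translation were higher at 60 min, where 88.3% (CCNA-GFP) and 84.8% (-IAA) of all genes were called. Zfp36l1 (chr12:80107754-80113013), a CCCH protein that destabilises AU-rich mRNA, had 5.78, 3.72 and 6.44 TPM in mitosis, 17.7 and 16.4 TPM at 60 min and 6.97 and 8.54 TPM at 120 min. Its 60-min libraries stood clear of both other stages, by 1.67 over mitosis (SE 0.18, adjusted p = 5.0e-08; 0.44 at equal totals). Zfp36l2 differed by 0.93 (adjusted p = 4.4e-06; 0.18 at equal totals). Of the members listed under translation, Zfp598, which senses collided ribosomes, differed by 0.95 (adjusted p = 3.2e-07) and Zfp706 by 0.87 (adjusted p = 2.6e-06), turning to -0.04 and -0.25 at equal totals. Both genome maintenance genes were called, Zfp451, a SUMO ligase, at 0.66 and Zfp280c at 0.47, turning to -0.36 and -0.23 at equal totals.

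The largest falls from 60 to 120 min in CCNA-GFP were those of Zfp36l1, Zfp275 and Zfp507. Zfp36l1 fell by 1.05 on the log2 scale (SE 0.20, adjusted p = 0.00042). Zfp275, on the X chromosome, went from 4.53 and 2.86 TPM to 1.36 and 1.5 TPM (-0.93, SE 0.15, adjusted p = 9.2e-05), and Zfp507 from 2.93 and 2.51 TPM to 0.991 and 1.22 TPM (-0.82, SE 0.13, adjusted p = 7.7e-05). All 3 fell at equal totals too, by -0.83, -0.66 and -0.56. They also fell in -IAA, by -0.84, -0.69 and -0.31, with adjusted p of 0.0015, 1.6e-05 and 0.00053, although there Zfp507 did not pass at equal totals (-0.03, adjusted p = 0.81).

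The genes that gained most from 60 min to asynchronous cells were Zfp580, Zfp105 and Zfp934. Zfp580 had 0.279, 0.199 and 0.0281 TPM in mitosis, 0.457 and 0.318 TPM at 60 min and 1.33, 1.29 and 1.13 TPM in asynchronous cells (0.69 over 60 min, SE 0.11, adjusted p = 1.4e-05). It overlaps Ccdc106 on the same strand, so reads could be split between them, and in -IAA the difference was 0.04 (adjusted p = 0.82). Zfp105 had 0.723 and 0.460 TPM at 60 min and 1.33, 1.73 and 1.66 TPM in asynchronous cells (0.68, SE 0.09, adjusted p = 2.1e-06), and 0.44 in -IAA (adjusted p = 0.00014). Zfp934, a KRAB gene of 91373 bases on chromosome 13, had 0.906, 0.664 and 1.32 TPM in mitosis, 0.989 and 0.460 TPM at 60 min and 1.83, 1.38 and 2.53 TPM in asynchronous cells. At 60 min it did not pass against mitosis on the deposited scale (-0.07, adjusted p = 0.51) and was at -0.64 (adjusted p = 2.3e-05) at equal totals, and it was higher in asynchronous cells than at 60 min (0.63, SE 0.10, adjusted p = 7.2e-06), as in -IAA (0.77, adjusted p = 1.5e-08). In Zfp934, 41.6% of 50-base words occur in other genes, most in Zfp808. All 3 gained at equal totals as well, by 0.85, 0.89 and 0.88.

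The members were also split by class. At 60 min in CCNA-GFP 148 of 158 KRAB genes (93.7%) and 88 of 102 C2H2 genes without KRAB (86.3%) were higher, against 88.3% of all genes, with medians of 0.72 and 0.74. At equal totals 60 KRAB genes were higher and 42 lower, and 21 and 36 of those without KRAB, against 36.3% and 33.2% of all genes. In asynchronous cells 142 of 158 and 88 of 102 were higher, against 70.4% of all genes, and at equal totals 78 and 36, against 24.7%. Their median levels there were 1.23 TPM and 1.96 TPM. In CCNA-GFP all 97 KRAB genes within clusters were higher at 90 and at 120 min on the deposited scale, where 89.1% and 90.2% of all genes were called, and at equal totals 32 and 29 were (33.0% and 29.9%, against 31.8% and 28.7%). In -IAA 85 and 83 of 103 were higher (82.5% and 80.6%, against 74.8% and 69.6%), with 1 lower at each time, and at equal totals 34 and 31 (33.0% and 30.1%, against 34.5% and 32.0%). The difference between the classes was not tested.

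Neighbouring members did not share 1 size of change. Medians of the 21 clusters at 60 min ran from 0.34 to 1.08, and in 16 of them every listed member was called higher, where 88.3% of all genes were. C2 on chromosome 17 had the highest median on the deposited scale (1.08), from Zfp799 at 0.23 to Zfp472 at 1.49, all 13 called. C1 had a median of 0.99, from Zfp52 at 0.50 to Zfp760 at 1.72, all 13 called. C4 (chr13:67362113-67792512) had 0.45, from Zfp493 at 0.21 to Zfp459 at 1.02, all 10 called. C8 (chr6:47835661-48048911) had the lowest median on that scale, 0.34, from Zfp777 at 0.07 to Zfp212 at 0.98, with 4 of 5 called. At equal totals these 4 medians were 0.20 in C2, 0.20 in C1, 0.04 in C4 and -0.14 in C8, but C2 was no longer the highest of the 21 nor C8 the lowest, in a range from -0.33 in C16 to 0.23 in C18.

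**Figure D3:**
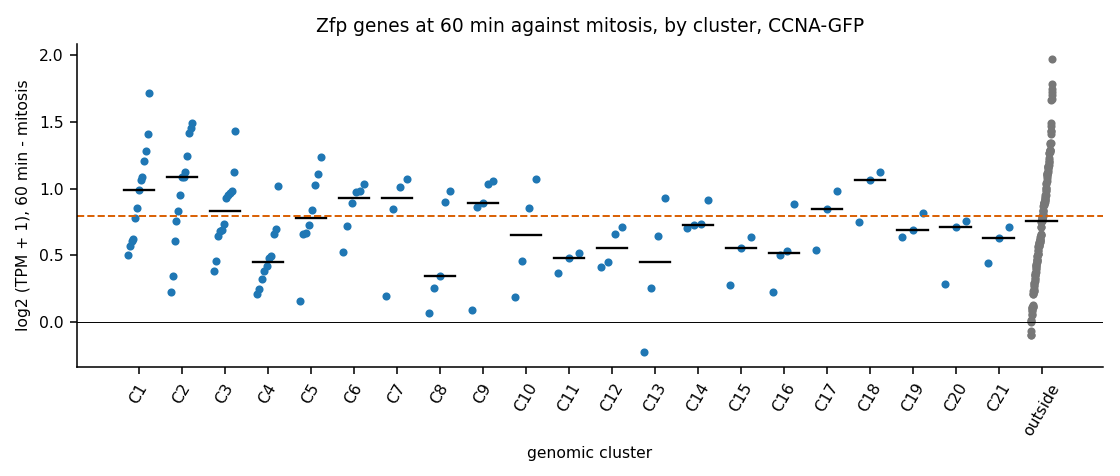
Each point is a Zfp gene of CCNA-GFP, with its cluster on the x axis (C1 to C21, and members outside clusters) and its log2(TPM + 1) difference between 60 min and mitosis on the deposited scale on the y axis; black bars are medians and the dashed line is the median of all listed genes, 0.79. Cluster medians ran from 0.34 to 1.08; at equal totals the median of C8 turned to -0.14 and that of C1 was 0.20.

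Longer members differed less from mitosis at 40 min than shorter ones. With members split at 13.5 and 23.3 kb of gene length, the median difference from mitosis at 40 min in CCNA-GFP was 0.33 in the shortest group, 0.26 in the middle group and 0.16 in the longest, and over all genes 0.46, 0.34 and 0.15. At 60 min it was 0.84, 0.80 and 0.57 (all genes 0.97, 0.92 and 0.63), and at 120 min 0.70, 0.66 and 0.64. The Spearman correlation with length over the 270 members went from -0.36 at 40 min through -0.23 at 60 min to -0.07 at 120 min, against -0.54, -0.37 and -0.23 over all genes. In -IAA it was -0.47 over members at 40 min, with medians of 0.51, 0.32 and 0.16. These are descriptions across genes of the same libraries, which are not independent replicates. At equal totals the medians at 40 min were 0.06, 0.00 and -0.13 and at 60 min 0.10, 0.06 and -0.12, in the same order, while the longest group turned below 0.

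**Figure D4:**
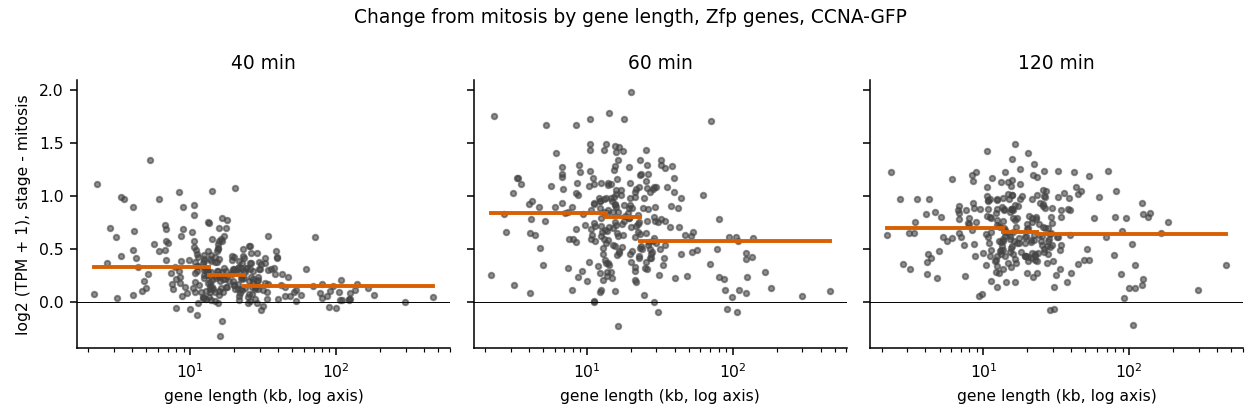
Each point is a Zfp gene of CCNA-GFP, with its gene length in kb on a log x axis and its log2(TPM + 1) difference from mitosis on the y axis, at 40, 60 and 120 min; orange bars are medians of the 3 length groups. The bars step down from 0.33 to 0.16 at 40 min and lie within 0.70 to 0.64 at 120 min; all values are on the deposited scale, and at equal totals the longest group turned to -0.13 at 40 min.

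Cofactors through which KRAB proteins act were also followed. Of 30 genes in this list 29 were listed, and in CCNA-GFP 27 were higher and 0 lower at 60 min, against 88.3% and 0.515% of all genes (median 0.83, against 0.79), while at equal totals 11 were higher and 15 lower, against 36.3% and 33.2%. Trim28, the corepressor itself, differed by 1.31 (0.31 at equal totals), Setdb1 by 0.89 (-0.20 at equal totals) and Uhrf1, which maintains DNA methylation, by 1.82 (0.62 at equal totals). The remaining 2 were Ehmt1 at -0.21 and Trim24 at 0.28, neither called on the deposited scale, which were at -1.16 (adjusted p = 5.3e-07) and -0.77 (adjusted p = 2.8e-05) at equal totals. In asynchronous cells 23 were higher, against 70.4% of all genes, and 1, Chd4, was lower (-0.50; -1.05 at equal totals), and at equal totals 6 were higher and 7 lower, against 24.7% and 20.2%. In asynchronous cells of the CTCF-AID line 4 of 29 were higher (13.8%) and 1 lower in -IAA, against 34.3% and 5.25% of all genes, and 4 were higher and 2 lower in +IAA, against 40.9% and 5.89%. At equal totals 2 were higher and 12 lower in -IAA (6.9% and 41.4%, against 27.2% and 21.4%) and 2 and 15 in +IAA (6.9% and 51.7%, against 29.7% and 22.4%). At 60 min on the deposited scale 25 were higher and 1 lower in -IAA, against 84.8% and 2.7% of all genes (median 0.60, against 0.63). In +IAA 23 were higher and 1 lower, against 82.2% and 4.04% (median 0.62, against 0.63). The difference between the lines was not tested. With auxin limma, in the fit with no block, called 0 of the 29 at any stage. An unadjusted p under 0.05 was reached by 1 at 50 min and 1 at 60 min, as by 199 and 182 of all 10237 genes. Their log2 differences at 60 min ran from -0.41 to 0.11, with 7 of 29 above 0. That fit leaves out the pairing of the libraries, and none with the block is given for these genes.

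The 2 untreated lines are in separate tables that list different genes and were fitted separately, so they were compared by their calls. Of the 268 members in both, 132 were higher than mitosis in both lines at 40 min, 231 at 60 min, 204 at 120 min and 151 in asynchronous cells. These were 49.3%, 86.2%, 76.1% and 56.3% of the members, against 48.8%, 83.5%, 69.1% and 32.8% of the 9574 genes in both tables. The Spearman correlation of the 2 lines' differences over these members reached 0.87 for 40 min and 0.82 for 60 min, with 0.61 for 120 min and 0.71 for asynchronous cells, where the points share their libraries and gene properties such as length. In -IAA 185 members were higher and 5 lower at 40 min, against 63.3% and 3.21% of all genes, 227 and 6 at 50 min (79.1% and 4.56%), and 248 and 1 at 60 min (84.8% and 2.7%), the last being Zfp236. In +IAA the counts were 173 and 9 at 40 min (58.7% and 3.87%), 236 and 9 at 50 min (78.2% and 5.37%) and 240 and 6 at 60 min (82.2% and 4.04%). Later on the counts were 226 and 5 at 90 min (74.8% and 3.37%) and 218 and 3 at 120 min (69.6% and 3.15%) in -IAA. In +IAA they were 226 and 6 (73.8% and 4.41%) and 211 and 5 (68.2% and 4.42%). Each arm had its own mitotic libraries, and 236 of 283 members (83.4%) were higher at 60 min in both arms, against 81.2% of all genes.

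With auxin the share of Zfp genes called was near that of all genes. Ctcf RNA itself was 7.26 TPM in -IAA and 8.73 TPM in +IAA asynchronous cells, and since auxin removes the protein, its RNA does not check the depletion. A gene was called where +IAA minus -IAA passed an adjusted p of 0.1 and a log2 difference of 0.2, and counted as a responder where this held in asynchronous cells or at 2 or more times after release. By this rule 0 of 283 members were higher and 2 (0.707%) lower, against 0.342% and 0.762% of all genes, namely Zfp341 and Zfp398. In asynchronous cells an unadjusted p under 0.05 was reached by 1 member for a gain and by 3 for a loss, and by 286 of all 10237 genes in either direction. Mitotic libraries gave no call in any gene.

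Zfp341 (chr2:154613297-154646821), an activator of STAT3 transcription, had 0.348, 0.244 and 0.388 TPM in -IAA and 0.319, 0.245 and 0.338 TPM in +IAA mitotic cells. In asynchronous cells it had 0.483, 0.369 and 0.642 TPM without and 0.197, 0.135 and 0.221 TPM with auxin, and at 120 min 0.662 and 0.615 TPM against 0.223 and 0.224 TPM. The arms overlapped in mitosis and did not overlap at the other 2 stages. The log2 difference was -0.03 in mitosis, -0.33 at 60 min (adjusted p = 0.18), -0.49 at 90 min (SE 0.08, adjusted p = 0.0019), -0.42 at 120 min (adjusted p = 0.013) and -0.34 in asynchronous cells (SE 0.07, adjusted p = 0.0078). These are low levels, and the pseudocount of 1 TPM shrinks the change.

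Zfp398 (chr6:47835661-47873537), a KRAB gene at the edge of cluster C8, had 1.30, 1.04 and 1.45 TPM in -IAA and 0.453, 0.463 and 0.645 TPM in +IAA asynchronous cells. In mitosis it had 0.892, 0.781 and 1.22 TPM against 0.894, 0.564 and 1.08 TPM, and at 120 min 2.03 and 1.65 TPM against 0.802 and 0.895 TPM. The arms overlapped in mitosis and did not overlap at the other 2 stages. The log2 difference was -0.09 in mitosis, -0.53 at 50 min, -0.55 at 60 min, -0.64 at 90 min (adjusted p = 0.12), -0.62 at 120 min (adjusted p = 0.18) and -0.57 in asynchronous cells (SE 0.14, adjusted p = 0.046). Leaving out a replicate kept the asynchronous difference between -0.37 and -0.29 for Zfp341 and between -0.62 and -0.53 for Zfp398. By the same rule 0 members then responded without replicate 1, 1 (Zfp341) without replicate 2 and 0 without replicate 3, while over all genes the responders went from 35 higher and 78 lower to 0 and 0, 21 and 59, and 18 and 37. Their promoters are the 2 printed above.

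**Figure D5:**
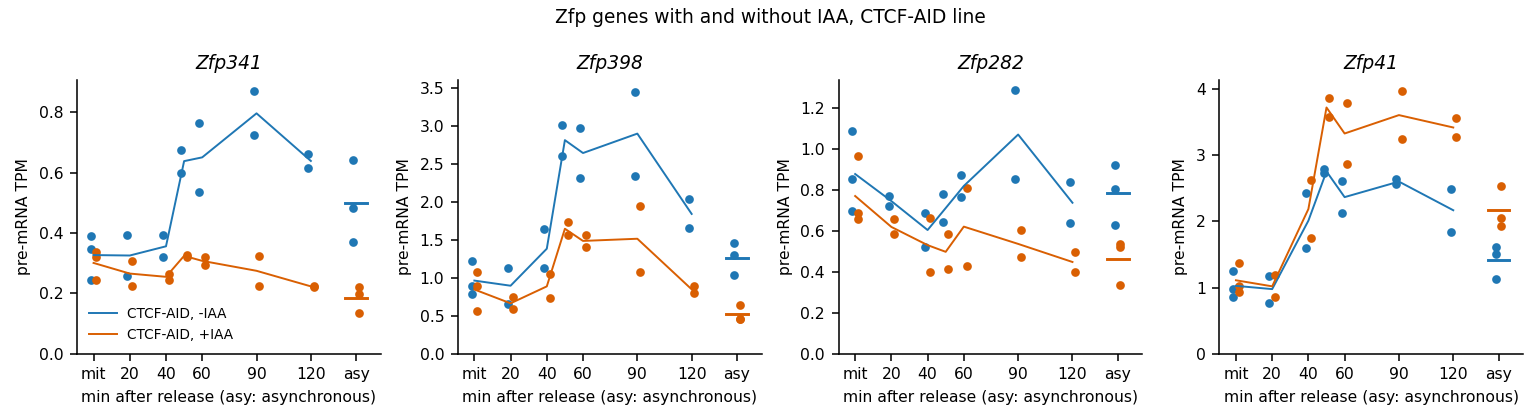
Pre-mRNA TPM (y axis, from 0) of 4 Zfp genes in every library of the CTCF-AID line, against minutes after release (x axis; mit for mitosis, asy for asynchronous), -IAA and +IAA in separate colours, lines through stage means. For Zfp341 and Zfp398 the arms overlap in mitosis and separate later, in asynchronous cells at 0.369 to 0.642 TPM against 0.135 to 0.221 TPM and at 1.04 to 1.45 TPM against 0.453 to 0.645 TPM.

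The replicate numbers paired the libraries, and a fit with the replicate as a block changed these counts. With the block 1 member responded higher, Zfp41, and 3 lower, Zfp282, Zfp341 and Zfp398, against 0.938% and 1.69% of all genes. Zfp341 and Zfp398 were then called from 50 min on, with adjusted p of 0.0013 and 0.0030 at 60 min. Zfp282, next to Zfp398 on chromosome 6, had 0.632, 0.804 and 0.925 TPM in -IAA and 0.335, 0.520 and 0.535 TPM in +IAA asynchronous cells. Its arms did not overlap, and its difference was -0.29 in asynchronous cells (adjusted p = 0.0050 with the block, 0.62 without) and -0.42 at 90 min (0.00081 with the block, 0.29 without).

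Within C8, Zfp777 was also lower with the block at 90 min (-0.32, adjusted p = 0.0079) and Zfp212 at 120 min (-0.34, adjusted p = 0.038), so that 4 of the 5 genes of this cluster were lower at some stage, all but Zfp956 (-0.07 in asynchronous cells). In that fit 5 of the 283 members (1.77%) and 1.98% of all genes were lower at 1 or more stages, and the cluster was singled out after its values were seen. The genes share a 213 kb stretch and are not independent examples. Zfp41 (chr15:75616679-75629827) had 1.62, 1.13 and 1.51 TPM in -IAA and 1.93, 2.04 and 2.53 TPM in +IAA asynchronous cells, arms that did not overlap, and differed by 0.39 (adjusted p = 0.0076 with the block, 0.49 without). Zfp28 was higher at 120 min (0.27, adjusted p = 0.070 with the block). Whether the auxin effect in early cells (mean of 20, 40, 50 and 60 min) differed from that in asynchronous cells was tested with no block. There limma called 0 members, against 0.0195% of all genes, and 1 member had an unadjusted p under 0.05, as did 117 of all 10237 genes. For Zfp341 the difference of the 2 effects was 0.13 and for Zfp398 0.18, both with an adjusted p of 1.0 in that fit. With the block the limma p of Zfp341 was 0.020 unadjusted and 0.98 adjusted. Early and asynchronous cells also differed in time under auxin.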

How the data were processed

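Total RNA, depleted of ribosomal RNA and sequenced as stranded read pairs, was measured in 55 libraries (19 CCNA-GFP, 18 CTCF-AID -IAA and 18 +IAA). The authors aligned reads to mm10 with STAR, quantified them with RSEM over Gencode transcripts to which 1 unspliced isoform per gene had been added, and deposited the pre-mRNA TPM of genes above 0.5 TPM; tool versions are not given in the sources used here. The deposited TPM hold no counts, so the depth of the libraries is unknown and no counting interval is given.

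Values were analysed as log2(TPM + 1) with limma 3.58.1 (R 4.3.3), variances moderated with a trend, over every listed gene of a table, and p-values were adjusted by the Benjamini-Hochberg method over all of them. Each stage was set against mitosis in a model that held the replicate number as a block (adjusted p under 0.05). Auxin was compared at each stage with no block (adjusted p under 0.1 and an absolute log2 difference over 0.2). The 2 tables list different genes and were fitted separately, and no test ran across them. Fold changes on this scale understate those of low genes. The fit was tested on simulated data.

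Replicate numbers come from the labels. Deviations from the group means of same-numbered libraries had correlations over 0.1 for all 41 CCNA-GFP pairs (0.130 to 0.802) and for all 18 pairs between the auxin arms (0.513 to 0.884), so the numbers were taken to pair the samples.

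Positions, lengths and overlaps come from Gencode vM21 on mm10. Classes come from the Gencode coding sequences, translated and searched for a C2H2 pattern and, with HMMER 3.4, for KRAB; the design had named RefSeq proteins, which were not used here. Genes named were those of the role lists and, at 60 min in CCNA-GFP, the 5 called members with the largest increase that were higher in every replicate, and up to 3 called lower. The rule also took the 3 largest falls from 60 to 120 min and gains from 60 min to asynchronous cells, the 3 highest in asynchronous cells, and the responders to auxin by the main test. Zfp365, Zfp646, Zfp653, Zfp750, Zfp236, Zfp41, Zfp28 and the members of cluster C8 other than Zfp398 were named after their values were seen. Zfp708, Zfp207, Zfp830, Zfp36 and Zfp36l3 of the lists were not analysed here. The members and lists were chosen with earlier results of these data known. Alternatives were a pseudocount of 0.1, a mean of at least 0.5 TPM, equal library totals, the fit with or without the block, and leaving out each replicate.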

Additional observations from a re-analysis of the deposited data

Results flagged for a closer look

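Among the 38 Zfp genes that the rule for named genes gave, 5 had a difference from mitosis with opposite signs in CCNA-GFP and in CTCF-AID -IAA in every replicate pair. The difference between the lines was not tested, since the 2 tables were fitted separately, and the other Zfp genes were not searched for this. For Zfp36l1 the asynchronous difference was 0.25 in CCNA-GFP and -0.42 in -IAA. For Zfp706 it was 0.39 and -0.20. Zfp280c differed in asynchronous cells by 0.25 and -0.16 and at 120 min by 0.39 and -0.18. Zfp275 differed at 120 min by 0.41 and -0.06. Zfp445, which protects imprints, differed at 60 min by 0.21 and -0.11, neither of which passed the test. At equal totals the difference from mitosis was below 0 in both lines in each of these comparisons, a smaller share of the listed total. It was -0.26 and -0.59 for Zfp36l1, -0.09 and -0.37 for Zfp706, -0.033 and -0.29 for Zfp280c in asynchronous cells and -0.20 and -0.59 at 120 min, -0.21 and -0.41 for Zfp275, and -0.79 and -0.88 for Zfp445.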

How the results depend on the processing

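Scaling to equal totals moved most counts against mitosis; the depth of the libraries is unknown. At equal totals the members higher than mitosis in CCNA-GFP numbered 50 at 40 min, 84 at 60, 81 at 90, 70 at 120 min and 116 in asynchronous cells. In -IAA they numbered 83, 105, 86, 95 and 81 from 40 to 120 min, and in +IAA 79, 112, 102, 104 and 88. These counts of the 2 auxin arms stand without the share of all genes, so they do not tell the members from the table as a whole. For CCNA-GFP the shares of all genes are given in the Results above. From 60 to 120 min 41 were then lower and 71 higher in CCNA-GFP, 45 and 77 in -IAA and 59 and 80 in +IAA. With auxin 1 member was then higher, and 1 was called in the early test. The 60-min difference in CCNA-GFP reversed at equal totals in 20 named genes, to -0.34 for Zfp105, -0.55 for Zfp148, -0.020 for Zfp219, -0.23 for Zfp280c, -0.036 for Zfp341, -0.22 for Zfp384, -0.79 for Zfp445, -0.36 for Zfp451, -0.39 for Zfp462, -0.12 for Zfp507, -1.05 for Zfp532, -0.17 for Zfp568, -0.37 for Zfp57, -0.060 for Zfp580, -0.062 for Zfp592, -0.037 for Zfp598, -0.41 for Zfp600, -0.40 for Zfp609, -0.25 for Zfp706 and -0.64 for Zfp809. Without the replicate block, 48 members were higher at 40 min in CCNA-GFP (17.8%, against 23.8% of all genes). In asynchronous cells 62 were higher in -IAA (21.9%, against 11.6%) and 85 in +IAA (30.0%, against 17.3%). Counts given without such a share were 123 at 40 min and 135 at 120 min in -IAA and 112 at 40 min in +IAA. From 60 to 120 min 23 were lower and 5 higher in CCNA-GFP (12.1% and 1.79% of all genes). These numbers were 73 and 6 in -IAA (33.2% and 2.62%) and 85 and 7 in +IAA (33.1% and 2.78%). Zfp532 turned to -0.12 without the block. With the block in the auxin fit, 1 member responded higher and 3 lower. A pseudocount of 0.1 gave 4 members at 30 min in CCNA-GFP, and a mean of at least 0.5 TPM, which drops Zfp341, left 1 auxin responder. The cause of these shifts was not tested, other than the gene dropped. Leaving out each replicate gave 0 to 3 members at 30 min and 50 to 108 at 40 min in CCNA-GFP (lowest without replicate 1), 92 to 153 in asynchronous -IAA cells (lowest without replicate 3) and 136 to 222 at 120 min in +IAA (lowest without replicate 2). From 60 to 120 min it gave 7 to 74 lower and 7 to 24 higher in CCNA-GFP, 6 to 23 higher in -IAA, and 81 to 138 lower and 7 to 22 higher in +IAA. It gave 0 to 1 auxin responders. Within replicate 1 of CCNA-GFP, an alternative chosen after seeing the data, 171 members in place of 53 were highest at 60 min and 36 in place of 116 at 90 min. Times after release hold 2 libraries or 1, so leaving out a replicate can leave a lone library, which is assumed to vary like the other groups. The 60-min difference then ran from -0.013 (without replicate 1) to 0.21 (without replicate 2) for Zfp105 and from -0.17 to 0.049 (without replicate 2) for Zfp934.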
